A study of Homo sapiens with 3 samples.

Results

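The interferon response and double-stranded RNA sensing genes were examined after TMPO-AS1, a long non-coding RNA, had been targeted by small interfering RNAs (siRNAs). The cells were MDA-MB-231, an established line of human breast cancer of the triple-negative kind. The set held 50 named genes, fixed by symbol, and 49 of them had a probe set annotated with that symbol alone, out of 33616 genes with a value on the arrays. STAT2 had none and was not analysed here. Where a gene had more than 1 such probe set, the brightest stood for it. All cells were transfected for 48 hours, control cells with siControl and the others with siTMPO-AS1 #1 or siTMPO-AS1 #2, and each siRNA had 1 array. So 3 arrays were compared, and no siRNA had a replicate.

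Short double-stranded RNA can be taken for viral RNA inside a cell. The helicases encoded by RIGI and IFIH1 and the endosomal receptor TLR3 then signal through adaptors to IRF3 and NF-kB, which switch on type I interferon. The kinase PKR (gene EIF2AK2), which also binds double-stranded RNA, halts translation. Secreted interferon binds IFNAR1 and IFNAR2, and the kinases JAK1 and TYK2 activate transcription factors, IRF9 among them, that bind the interferon-stimulated response element before genes such as IFIT1, MX1 and ISG15. IRF1 is a transcription factor that gamma-interferon induces strongly, and XAF1 is induced by interferon and counteracts XIAP, an inhibitor of apoptosis. Because siRNAs are themselves double-stranded, these genes are also a readout of whether an siRNA was sensed.

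Every value below is a log2 signal of the deposited scale, 1 per array, or a log2 ratio, the siRNA array's log2 signal less that of siControl. The 5 members IRF3, IRF7, OAS1, ISG20 and CMPK2 lay below the brightness filter, a mean log2 signal of 4.42, which left 44 members among 16808 genes tested. "Higher" and "lower" mean at least 1.5-fold, and since each ratio compares 1 array with 1 array, they carry no test. Both ratios of a gene share the siControl array, so a high or low control value moves them together. The probe set of TMPO-AS1 itself read 4.83 with siControl, 4.37 with siTMPO-AS1 #1 and 4.28 with siTMPO-AS1 #2. Its log2 ratios, -0.46 and -0.55, were both short of 1.5-fold. Its mean of 4.50 just passed the filter, while the signals on both siRNA arrays lay under 4.42. Of 10 breast and mesenchymal identity genes with a value, 1 was higher and 1 lower with siTMPO-AS1 #1, and 4 were higher and 0 lower with siTMPO-AS1 #2, where of all 33616 genes with a value 11.7% were higher and 12.7% lower with siTMPO-AS1 #1 and 12% and 7.76% with siTMPO-AS1 #2. The epithelial genes EPCAM (log2 ratios 0.34 and 2.30), KRT8 (0.20 and 0.97) and KRT18 (-0.70 and 0.90) and the dim progesterone receptor gene PGR (0.37 and 0.95) were the 4, and ERBB2 had 1.25 and -0.18. The dim epithelial gene CDH1 went the other way, with -0.55 and -0.27. CD44 had -0.28 and -0.11, and SNAI2 -0.26 and 0.28. The mesenchymal gene VIM read 16.52, 16.28 and 16.45, and the estrogen receptor gene ESR1, whose product the line is known to lack, 3.34, 3.61 and 3.51. Of 8 immune cell markers 7 had a value, with log2 ratios between -1.08 and 1.18 for siTMPO-AS1 #1 and between -0.35 and 0.73 for siTMPO-AS1 #2. With siTMPO-AS1 #1, 2 were higher and 1 lower, and with siTMPO-AS1 #2, 1 was higher and 0 lower. With both siRNAs 0 were higher and 0 lower, against 3.66% and 3.09% of all genes with a value. The 2 that passed the filter were CD68 (1.18 and -0.35) and TYROBP (-0.18 and 0.73). Of 6 fibroblast markers with a value, 1 was higher and 0 lower with siTMPO-AS1 #1, and 2 were higher and 1 lower with siTMPO-AS1 #2. LUM was higher with both (log2 ratios 1.13 and 0.62), COL1A1 had 0.19 and 1.22, DCN -0.47 and 0.36, THY1 0.16 and 0.42, PDGFRA -0.10 and -0.19 and PDGFRB -0.29 and -0.63. The part of these markers in the results was not tested.

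The sequences before the gene starts are shown because many genes of the set are known to be controlled through elements there. They are given for the members lower and for those higher with both siRNAs. They are RefSeq sequences of build GRCh38.p14, printed 5′ to 3′ on the strand of the gene. Capitals mark matches to the core of the interferon-stimulated response element (GAAANNGAAA, or TTTCNNTTTC on the other strand) and to the gamma-activated site, an element of gamma-interferon-inducible promoters (TTCNNNGAA, the same on both strands), and overlapping matches run together. For IRF1 and for both annotated starts of XAF1 the 250 bases before the start are given.
IRF1, chr5:132490774-132491023, minus strand: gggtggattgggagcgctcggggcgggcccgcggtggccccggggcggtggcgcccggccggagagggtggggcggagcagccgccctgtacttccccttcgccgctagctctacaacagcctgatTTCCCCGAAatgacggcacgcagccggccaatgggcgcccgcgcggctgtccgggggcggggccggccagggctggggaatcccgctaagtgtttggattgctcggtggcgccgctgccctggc
XAF1, chr17:6755197-6755446, plus strand: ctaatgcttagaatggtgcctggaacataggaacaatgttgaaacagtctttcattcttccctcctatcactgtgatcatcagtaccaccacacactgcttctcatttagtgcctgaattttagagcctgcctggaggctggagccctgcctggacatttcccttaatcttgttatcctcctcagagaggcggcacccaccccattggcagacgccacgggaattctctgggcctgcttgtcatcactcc
XAF1, chr17:6755796-6756045, plus strand: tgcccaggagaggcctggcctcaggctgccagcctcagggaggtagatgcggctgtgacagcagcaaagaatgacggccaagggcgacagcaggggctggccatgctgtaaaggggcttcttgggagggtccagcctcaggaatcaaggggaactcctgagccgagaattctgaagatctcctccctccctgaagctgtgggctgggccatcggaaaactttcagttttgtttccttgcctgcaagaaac

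Only exact matches counted. By that rule IRF1 held 1 gamma-activated site, from -124 to -116 relative to its start, and no response element core. XAF1 held no exact match to either motif before either start. Its stretch chr17:6755796-6756045 does hold tttcagtttt, which differs from TTTCNNTTTC by 1 base and is not marked. For the 4 members higher with both siRNAs, SAMD9, IFI27, IFI44 and IFI6, and for IFIT1 and HERC5 as typical interferon-stimulated genes, the stretch around the matches is given. TNFSF10, which is no member but was lower with both siRNAs like IRF1 and XAF1, is added for contrast.
SAMD9, chr7:93118080-93118139, minus strand: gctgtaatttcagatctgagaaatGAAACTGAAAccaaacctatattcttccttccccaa
IFI27, chr14:94110606-94110665, plus strand: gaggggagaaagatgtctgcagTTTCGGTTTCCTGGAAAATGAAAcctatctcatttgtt
IFI44, chr1:78649719-78649788, plus strand: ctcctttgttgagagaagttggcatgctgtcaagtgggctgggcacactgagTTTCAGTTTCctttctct
IFI6, chr1:27672268-27672357, minus strand: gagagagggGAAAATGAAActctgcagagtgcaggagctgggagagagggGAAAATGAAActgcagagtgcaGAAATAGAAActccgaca
IFIT1, chr10:89392493-89392552, plus strand: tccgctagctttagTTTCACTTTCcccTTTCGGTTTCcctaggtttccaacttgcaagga
HERC5, chr4:88456989-88457058, plus strand: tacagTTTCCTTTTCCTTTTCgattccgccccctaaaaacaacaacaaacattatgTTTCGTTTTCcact
TNFSF10, chr3:172523571-172523630, minus strand: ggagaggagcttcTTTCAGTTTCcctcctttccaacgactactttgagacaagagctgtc

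Neither siRNA came with generally higher signals of interferon-stimulated genes. With siTMPO-AS1 #1, 9 of 44 members tested (20.5%) were higher and 8 (18.2%) were lower, against 16.6% and 18.8% of all genes tested. With siTMPO-AS1 #2, 9 (20.5%) were higher and 5 (11.4%) were lower, against 16.1% and 10.4%. The members had median log2 ratios of 0.13 (siTMPO-AS1 #1) and 0.14 (siTMPO-AS1 #2), where all genes tested had 0.02 and 0.09. All of these shares lay near the background. With each array centred on its median the split was 12 higher and 6 lower with siTMPO-AS1 #1 and 7 higher and 7 lower with siTMPO-AS1 #2, and after a further quantile normalization it was 11 and 5, and 7 and 7, so the balance of higher and lower members depends on the scaling.

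With both siRNAs, 4 of 44 members (9.09%) were higher, against 5.42% of all genes tested, and 2 (4.55%) were lower, against 4.07%. The 4 higher were SAMD9, IFI27, IFI44 and IFI6, and the 2 lower were IRF1 and XAF1. Another 2 members, HERC5 and SAMD9L, passed 1.5-fold in opposite directions, where 3.3% of all genes did. In 23 of the 44 members the ratios had opposite signs, against 6579 of the 16808 genes tested. With either of the other scalings IFI44 left the higher group and SP100 joined the lower one. At 2-fold, 0 members were higher with both siRNAs, and IRF1 and XAF1 remained lower.

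**Figure D1:**
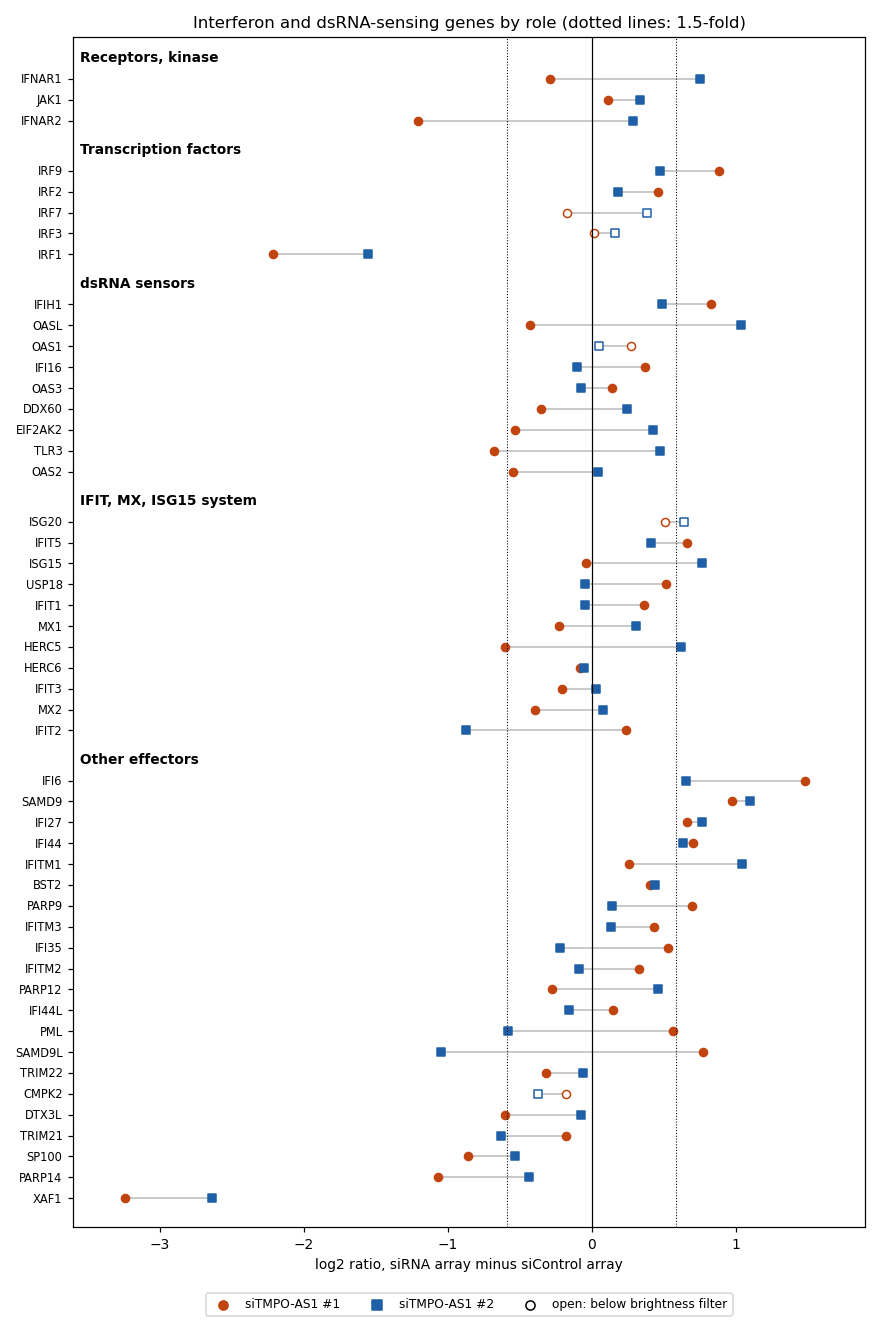
Log2 ratio (siRNA array minus siControl array, x axis) of the 49 members with a value, grouped by role; circles are siTMPO-AS1 #1, squares siTMPO-AS1 #2, open symbols genes below the brightness filter, and dotted lines 1.5-fold. Most members lie between the dotted lines on at least 1 array, while IRF1 (-2.21 and -1.55) and XAF1 (-3.24 and -2.64) lie far to the left on both.

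XAF1 stood furthest from control of all members. Its log2 signal was 8.96 with siControl, 5.72 with siTMPO-AS1 #1 and 6.33 with siTMPO-AS1 #2. Both siRNA arrays were thus well under the control array, 9.46-fold and 6.21-fold lower (log2 ratios -3.24 and -2.64). Of 16808 genes tested, 2 were this low or lower with both siRNAs, XAF1 included.

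IRF1 had a log2 signal of 7.30 with siControl, 5.08 with siTMPO-AS1 #1 and 5.74 with siTMPO-AS1 #2. It was 4.64-fold and 2.93-fold lower (log2 ratios -2.21 and -1.55), and 29 genes tested, IRF1 included, were this low or lower with both siRNAs. The other 47 members with a value had ratios between -1.20 and 1.48 with siTMPO-AS1 #1 and between -1.04 and 1.10 with siTMPO-AS1 #2, so neither gene overlapped them on either array. Those 47 had medians of 0.14 (siTMPO-AS1 #1) and 0.16 (siTMPO-AS1 #2). IRF1 and XAF1 each had 1 probe set, so no second probe set was at hand to set beside these values.

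A fit over all genes did not call either of them. In limma both siRNA arrays were set against the control array. XAF1 had a mean log2 ratio of -2.94 (SE 0.50, lower on 2 of 2 arrays). IRF1 had -1.88 (SE 0.52, lower on 2 of 2 arrays). By that fit 0 of 16808 genes (0%) had an adjusted p under 0.05, and 261 (1.55%) had an unadjusted p under 0.05. IRF1 and XAF1 were singled out with earlier results of these data known, so a p-value would lend them no support and none is given. The fit had 1 residual degree of freedom, taken from the difference between siRNAs of different sequence, so a count of 0 is no sign that the genes were alike.

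**Figure D2:**
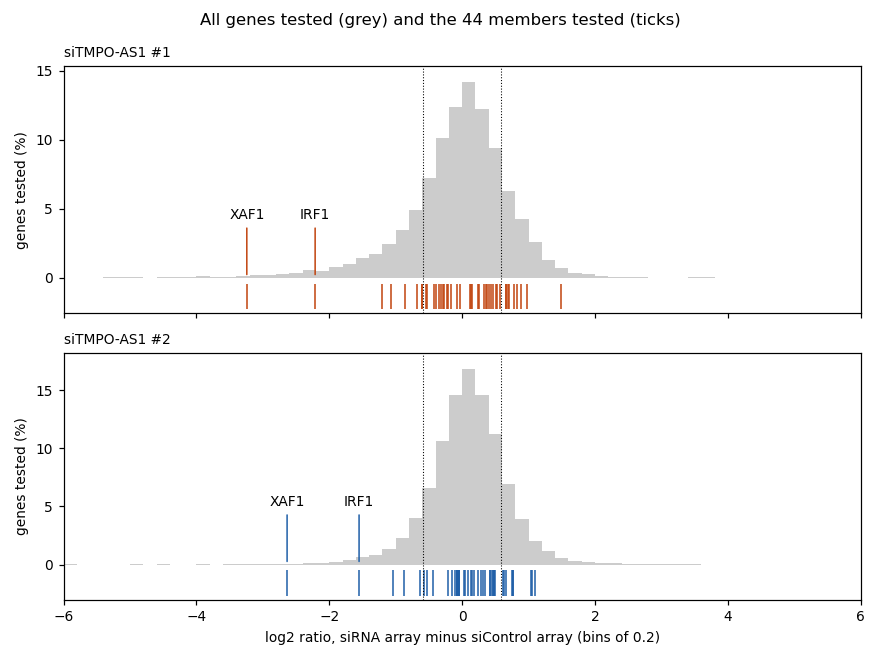
Share of the 16808 genes tested (y axis, percent) by log2 ratio in bins of 0.2 (grey bars) for each siRNA, with a tick for each of the 44 members tested and dotted lines at 1.5-fold. The members' ticks spread over the bulk of the grey distribution, and XAF1 and IRF1 are the leftmost ticks with both siRNAs.

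Both receptor subunits read lowest with siTMPO-AS1 #1. IFNAR1, a subunit of the type I interferon receptor, read 11.16 with siControl, 10.87 with siTMPO-AS1 #1 and 11.91 with siTMPO-AS1 #2. Its partner IFNAR2 read 11.82, 10.61 and 12.11, which put it 2.30-fold lower with siTMPO-AS1 #1 and within 1.5-fold with siTMPO-AS1 #2. For both subunits the siTMPO-AS1 #1 array was the lowest of the 3 and the siTMPO-AS1 #2 array the highest. The receptor's kinase gene JAK1 stayed within 1.5-fold on both arrays (12.32, 12.43 and 12.66).

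Among the transcription factors IRF1 was alone in being lower. IRF9, a DNA-binding factor that acts at the interferon-stimulated response element, read 7.69 with siControl, 8.57 with siTMPO-AS1 #1 and 8.17 with siTMPO-AS1 #2, which made it 1.84-fold higher with siTMPO-AS1 #1 (log2 ratio 0.88) and under 1.5-fold with siTMPO-AS1 #2 (0.48). IRF2, a relative of IRF1 that often represses the same elements, had 0.46 and 0.18. The dim genes IRF3, which receives the sensors' signal, and IRF7, which amplifies the interferon response, had ratios of 0.02 and 0.16 and of -0.17 and 0.38.

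The sensors of double-stranded RNA were read together with related genes, among them the DNA sensor gene IFI16, OASL and DDX60. The 8 genes of this group that were tested had a median log2 ratio of -0.39 with siTMPO-AS1 #1, with 1 higher and 1 lower (12.5% each). With siTMPO-AS1 #2 the median was 0.33, with 1 higher (12.5%) and 0 lower. Of all genes tested, 16.6% were higher and 18.8% lower with siTMPO-AS1 #1, and 16.1% and 10.4% with siTMPO-AS1 #2. IFIH1, the sensor of long double-stranded RNA, read 8.30 with siControl, 9.13 with siTMPO-AS1 #1 and 8.79 with siTMPO-AS1 #2 (log2 ratios 0.83 and 0.49). Both siRNA arrays were above control, but only the first by 1.5-fold. The endosomal receptor gene TLR3 read 9.09, 8.41 and 9.57 (-0.68 and 0.48), lower with siTMPO-AS1 #1. EIF2AK2, which encodes the kinase PKR that halts translation, read 13.89, 13.35 and 14.31 (-0.53 and 0.42).

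The oligoadenylate synthetase genes make the second messenger that activates RNase L. OAS1 read 4.31, 4.58 and 4.36 and OAS3 read 4.93, 5.07 and 4.86, all within 1.5-fold of control. OAS2 read 8.83, 8.28 and 8.87. OASL, a relative without the enzyme activity that enhances RIG-I signalling, read 5.71 with siControl, 5.29 with siTMPO-AS1 #1 and 6.75 with siTMPO-AS1 #2, which made it 2.05-fold higher with siTMPO-AS1 #2 and below control with siTMPO-AS1 #1 (-0.43). DDX60, a helicase linked to RIG-I signalling, had -0.35 and 0.25, and IFI16, a sensor of DNA, had 0.37 and -0.10.

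The IFIT, MX and ISG15 system genes, the usual markers of an interferon response, lay on both sides of control. Of the 10 tested, 1 was higher and 1 lower with siTMPO-AS1 #1 (10% each, against 16.6% and 18.8% of all genes tested). With siTMPO-AS1 #2, 2 (20%) were higher and 1 (10%) lower, against 16.1% and 10.4%. The medians were -0.06 and 0.06. Within 1.5-fold on both arrays were 6 of the 10, against 8549 of the 16808 genes tested. IFIT1, which binds viral RNA lacking a host cap, read 12.46 with siControl, 12.82 with siTMPO-AS1 #1 and 12.41 with siTMPO-AS1 #2. Its partner IFIT3 read 13.27, 13.06 and 13.30. These arrays lay on both sides of control by small amounts.

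IFIT2 read 11.06 with siControl, 11.30 with siTMPO-AS1 #1 and 10.18 with siTMPO-AS1 #2, which made it 1.83-fold lower with siTMPO-AS1 #2. IFIT5 was higher with siTMPO-AS1 #1 (log2 ratios 0.67 and 0.42). The dynamin-like GTPase genes MX1, an inhibitor of influenza virus, and MX2, an inhibitor of HIV, had -0.23 and 0.31 and -0.39 and 0.08. None of the IFIT and MX genes was higher with both siRNAs.

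ISG15, a ubiquitin-like modifier, read 5.91 with siControl, 5.88 with siTMPO-AS1 #1 and 6.68 with siTMPO-AS1 #2, which made it 1.70-fold higher with siTMPO-AS1 #2 alone. HERC5, the ligase that attaches ISG15, read 10.56, 9.96 and 11.18, lower with siTMPO-AS1 #1 and higher with siTMPO-AS1 #2. USP18, which removes ISG15 and restrains the receptor, had ratios of 0.52 and -0.05. HERC6 had -0.08 and -0.05, and the exonuclease gene ISG20, under the filter, had 0.51 and 0.64.

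Of the 20 remaining effectors tested, 4 (20%) were higher with both siRNAs, by 1.56-fold to 2.79-fold, against 5.42% of all genes tested. With siTMPO-AS1 #1, 6 (30%) were higher and 4 (20%) lower, against 16.6% and 18.8%. With siTMPO-AS1 #2, 5 (25%) were higher and 3 (15%) lower, against 16.1% and 10.4%. Their median log2 ratios were 0.37 (siTMPO-AS1 #1) and -0.07 (siTMPO-AS1 #2). SAMD9, a growth-restraining antiviral factor, read 12.19 with siControl, 13.16 with siTMPO-AS1 #1 and 13.29 with siTMPO-AS1 #2 (log2 ratios 0.97 and 1.10). IFI6, a small membrane protein gene, read 9.15, 10.63 and 9.80 (1.48 and 0.65). In both genes each siRNA array lay above control, evenly in SAMD9 and mainly with siTMPO-AS1 #1 in IFI6. IFI27, of the same gene family as IFI6, read 8.07, 8.73 and 8.84 (0.66 and 0.77). IFI44 read 8.68, 9.39 and 9.32 (0.70 and 0.64), while its neighbour IFI44L read 6.33, 6.48 and 6.18 (0.15 and -0.15).

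SAMD9L, the paralogue of SAMD9, parted from it with siTMPO-AS1 #2. It read 12.88 with siControl, 13.65 with siTMPO-AS1 #1 and 11.83 with siTMPO-AS1 #2 (log2 ratios 0.77 and -1.04), so the siRNA arrays lay on opposite sides of control. PML and SP100 encode the scaffold and a resident protein of PML nuclear bodies. PML read 9.80, 10.37 and 9.22 (0.56 and -0.58), just inside 1.5-fold on both sides. SP100 read 11.02, 10.16 and 10.49 (-0.86 and -0.53), below control on both arrays.

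PARP14, an ADP-ribosyltransferase, read 12.07 with siControl, 11.00 with siTMPO-AS1 #1 and 11.64 with siTMPO-AS1 #2 (-1.07 and -0.43), below control on both arrays. Its relative PARP9 had 0.69 and 0.14, DTX3L, the ubiquitin ligase that pairs with PARP9, had -0.60 and -0.08, and PARP12 had -0.28 and 0.46. The ubiquitin ligase gene TRIM21, whose product is also an antibody receptor in the cytosol, had -0.17 and -0.63, and TRIM22 had -0.32 and -0.06. The poly-ADP-ribosyltransferase genes and the TRIM genes thus held members on both sides of control.

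Membrane restriction factors were at or above control with siTMPO-AS1 #1. IFITM1, which blocks virus entry, read 14.41 with siControl, 14.67 with siTMPO-AS1 #1 and 15.45 with siTMPO-AS1 #2, which made it 2.06-fold higher with siTMPO-AS1 #2. IFITM2 (0.33 and -0.08) and IFITM3 (0.44 and 0.14) stayed within 1.5-fold. The IFITM genes are near-identical in sequence, so probes may capture RNA of more than 1 of them. IFITM3 read above 16, the log2 of the brightest 16-bit value, on all 3 arrays. BST2, which tethers budding virus, had 0.41 and 0.44, IFI35 had 0.53 and -0.22, and the dim gene CMPK2 had -0.18 and -0.37.

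A set of genes that respond strongly when short RNAs are sensed, part of them no members, was also read as a whole. Of 16 with a value, 3 were higher and 1 lower with siTMPO-AS1 #1, and 3 were higher and 2 lower with siTMPO-AS1 #2, with medians of -0.03 and 0.08. Of all genes with a value, 11.7% were higher and 12.7% lower with siTMPO-AS1 #1, and 12% and 7.76% with siTMPO-AS1 #2, with medians of 0.01 and 0.07. RSAD2, the antiviral enzyme viperin, read 5.96 with siControl, 6.80 with siTMPO-AS1 #1 and 6.27 with siTMPO-AS1 #2. RIGI, the gene of the sensor RIG-I, read 12.79, 12.55 and 12.93. The interferon gene IFNB1 read 3.66, 3.53 and 3.76, and the chemokine gene CCL5 read 3.99, 3.96 and 3.91, all under the filter. CXCL10, an interferon-inducible chemokine gene, read 5.01, 3.94 and 4.01, lower with both siRNAs (log2 ratios -1.06 and -0.99) and dim.

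**Figure D3:**
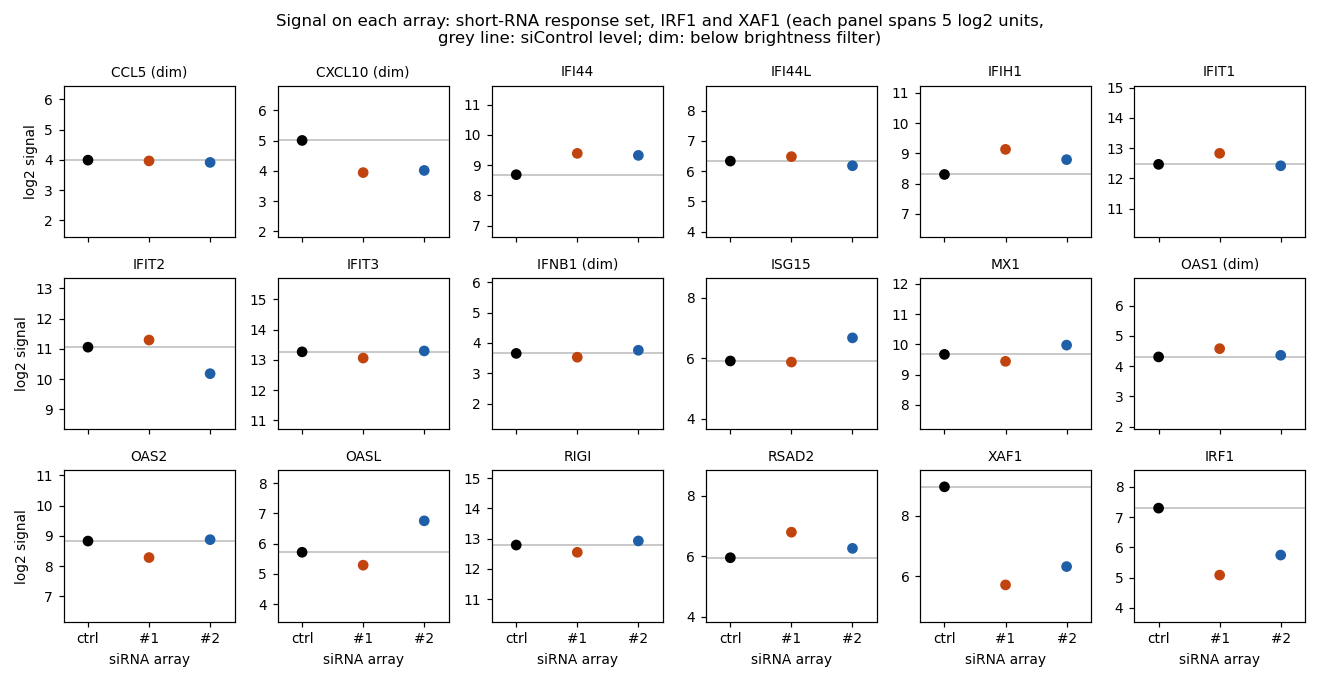
Log2 signal (y axis, each panel spanning 5 log2 units) on the siControl (ctrl), siTMPO-AS1 #1 and siTMPO-AS1 #2 arrays for the 16 genes of the short-RNA response set and for XAF1 and IRF1; the grey line is the siControl level. IFI44 is the gene of the set that is 1.5-fold higher with both siRNAs and CXCL10 the one that is lower, while XAF1 and IRF1 lie far below the line.

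No interferon gene with a value was 1.5-fold higher with either siRNA, but all of them lay under the brightness filter, so this says little. Among 14 genes of interferons and early IRF3 outputs with a value, 4 passed the filter. With both siRNAs 0 of the 14 were higher and 1 (7.14%), CXCL10, was lower. Of all genes with a value 3.66% were higher and 3.09% lower with both, so a count of 0 among 14 is near that share. IFNA1, IFNA2, IFNK, IFNL1, IFNL2 and IFNL3 had ratios between -0.61 and 0.42 and all lay under the filter. The zinc-finger antiviral gene ZC3HAV1 read 12.03, 12.77 and 11.72, and the NF-kB inhibitor gene TNFAIP3 read 10.39, 9.60 and 10.51, each past 1.5-fold with siTMPO-AS1 #1 only.

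Sensing adaptors and kinases were described by 19 genes with a value, of which 2 (10.5%) were higher with both siRNAs and 0 lower, against 3.66% and 3.09% of all genes with a value. The 2 were ADAR, which edits double-stranded RNA and restrains IFIH1 (log2 ratios 0.94 and 0.59), and DHX58, a RIG-I-like helicase (0.68 and 0.64). CGAS, the cytosolic DNA sensor, read 10.96 with siControl, 11.50 with siTMPO-AS1 #1 and 12.35 with siTMPO-AS1 #2, which made it higher with siTMPO-AS1 #2. MAVS, the mitochondrial adaptor of RIG-I and IFIH1, read 8.98, 7.05 and 8.75, which put it 3.82-fold lower with siTMPO-AS1 #1 and close to control with siTMPO-AS1 #2. The adaptor gene MYD88 (-1.03 and -0.43) and the kinase gene IKBKE (-0.97 and -0.38) were likewise lower with siTMPO-AS1 #1, while TBK1 had 0.31 and -0.47. The adaptor gene TICAM1 (0.86 and 0.49) was higher with siTMPO-AS1 #1. In all, 4 of the 19 were higher and 4 lower with that siRNA (21.1% each, against 11.7% and 12.7% of all genes with a value). Of the 14 that passed the filter, 28.6% were higher and 28.6% lower with it, against 16.6% and 18.8% of all genes tested. With both siRNAs 14.3% of the 14 were higher, against 5.42%, and 0 lower, against 4.07%.

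Other signalling genes held 5 lower and 1 higher of 12 with siTMPO-AS1 #1 (41.7% lower, against 12.7% of all genes with a value), and 1 lower and 1 higher with siTMPO-AS1 #2 (8.33% each, against 7.76% lower and 12% higher). PTPN1, a phosphatase that acts on JAK kinases, was lower with both siRNAs (-0.73 and -1.67). The transcription factor gene STAT3 read 11.68, 9.27 and 11.77, far lower with siTMPO-AS1 #1 alone. IL10RB, a receptor subunit for lambda interferons, read 8.52, 6.65 and 9.26, on opposite sides of control.

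Genes associated with gamma-interferon and IRF1 went both ways, with more lower than higher with each siRNA. Of 16 with a value, 2 were higher and 2 lower with both siRNAs (12.5% each, against 3.66% and 3.09% of all genes with a value). The medians were -0.10 and -0.08. With siTMPO-AS1 #1, 2 (12.5%) were higher and 5 (31.25%) lower, against 11.7% and 12.7%. With siTMPO-AS1 #2, 3 (18.75%) were higher and 4 (25%) lower, against 12% and 7.76%. Of the 11 tested, 1 (9.09%) was higher and 5 (45.5%) lower with siTMPO-AS1 #1, against 16.6% and 18.8% of all genes tested. With siTMPO-AS1 #2 these were 2 (18.2%) and 4 (36.4%), against 16.1% and 10.4%. TNFSF10, the death ligand TRAIL, read 14.90 with siControl, 13.41 with siTMPO-AS1 #1 and 12.87 with siTMPO-AS1 #2, 2.80-fold and 4.08-fold lower. The guanylate-binding protein gene GBP3 read 14.68, 12.81 and 13.75, lower on both siRNA arrays, whereas GBP1 had 0.50 and 0.45 and GBP2 0.05 and 0.00. IL15, a cytokine gene, was higher with both (0.61 and 0.83), as was the dim gene CASP1 (1.48 and 0.88). The immunoproteasome gene PSMB9 had -0.21 and -1.18, and ICAM1, an adhesion molecule, had -0.91 and 1.28. A lower IRF1 signal was thus accompanied by lower, higher and nearly equal signals among these genes.

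**Figure D4:**
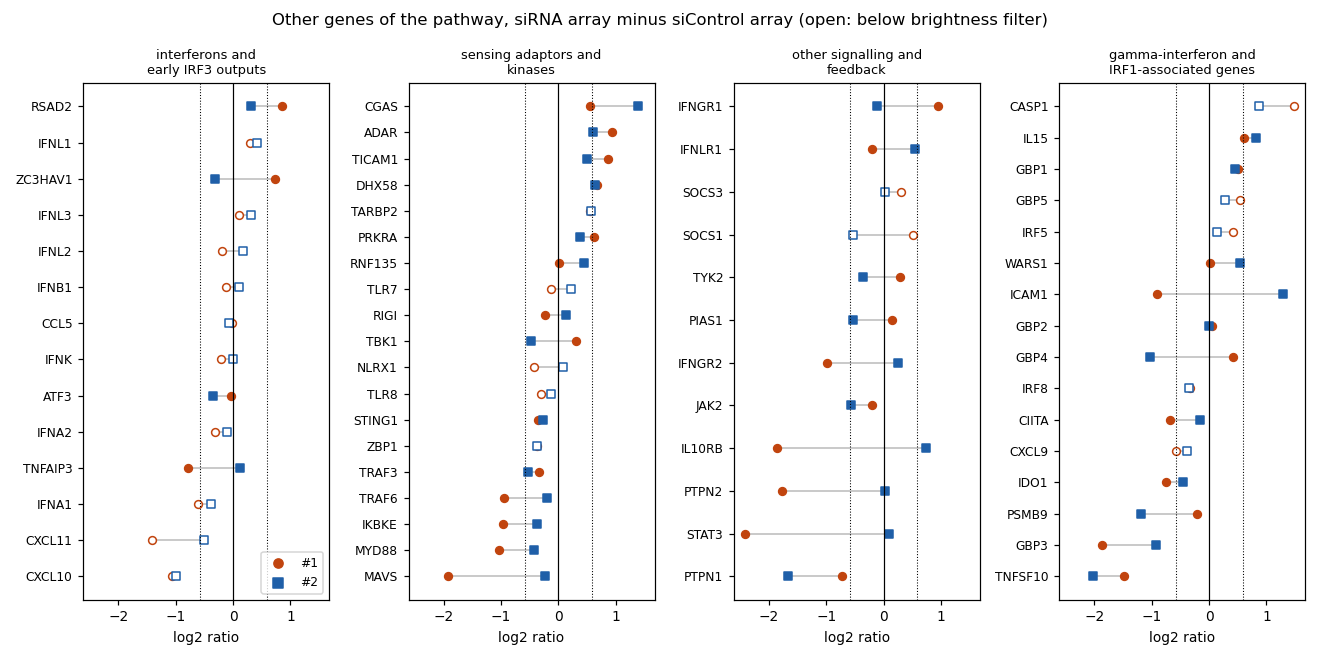
Log2 ratio (x axis) with siTMPO-AS1 #1 (circles) and siTMPO-AS1 #2 (squares) for the other pathway genes in 4 lists; open symbols lie below the brightness filter and dotted lines mark 1.5-fold. TNFSF10, GBP3, PTPN1 and the dim gene CXCL10 lie left of the dotted line with both siRNAs, and ADAR, DHX58, IL15 and the dim gene CASP1 right of it.

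The siRNA arrays can also be set against each other, without the control array. Of 44 members tested, 14 had a signal with siTMPO-AS1 #2 at least 1.5-fold above that with siTMPO-AS1 #1, against 22.7% of all genes tested, and 5 had the siTMPO-AS1 #1 signal above by as much, against 14.9%. In all 43.2% of members and 37.6% of all genes tested were at least that far apart. Among the 14 were 5 of the 8 tested in the group of sensors and related genes, OASL, TLR3, EIF2AK2, DDX60 and OAS2, with log2 differences (siTMPO-AS1 #1 minus siTMPO-AS1 #2) between -1.47 and -0.59, and both receptor subunits, IFNAR2 with -1.50 and IFNAR1 with -1.05. SAMD9L (1.82), PML (1.14), IFIT2 (1.11), IFI6 (0.83) and IFI35 (0.75) were the 5 in the other direction. XAF1 and IRF1, with -0.61 and -0.66, had their lowest signal with siTMPO-AS1 #1.

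The promoter windows, 250 bases before each annotated start, were matched for 38 of the 50 named genes. Only exact motif matches counted. The response element core was found in 21 of the 38 (55.3%), against 3.71% of 27305 genes with a window, and the gamma-activated site in 11 (28.9%), against 8.09%. The 20 members tested that held the core had median log2 ratios of 0.31 (siTMPO-AS1 #1) and 0.43 (siTMPO-AS1 #2). The 14 members tested that lacked it had -0.23 and -0.09. With siTMPO-AS1 #2, 7 members with the core were higher and 0 lower, against 1 higher and 4 lower without it. With siTMPO-AS1 #1 the counts were 7 and 2 against 2 and 5. The medians and counts of the members without the core include IRF1 and XAF1, which were singled out with earlier results known. The motifs were also chosen after values were seen, so this split is a description and no independent support.

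Over all genes tested, medians with and without the core were close. The 353 genes tested that held it had medians of -0.05 and 0.13, and the 9406 that lacked it had -0.03 and 0.12. With siTMPO-AS1 #2, 20.4% of the 353 were higher and 9.63% lower, against 18.6% and 11.5% of the 9406. With siTMPO-AS1 #1 the shares were 16.1% and 21.2% against 17.1% and 23.3%. SAMD9, IFI27, IFI44 and IFI6 all held the core, and IFI6 held it 3 times, as its sequence above shows. So did HERC5 and PARP14, which were lower with siTMPO-AS1 #1, and TNFSF10, which was lower with both siRNAs. A match describes letters in a window and does not show that a factor bound there.

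**Figure D5:**
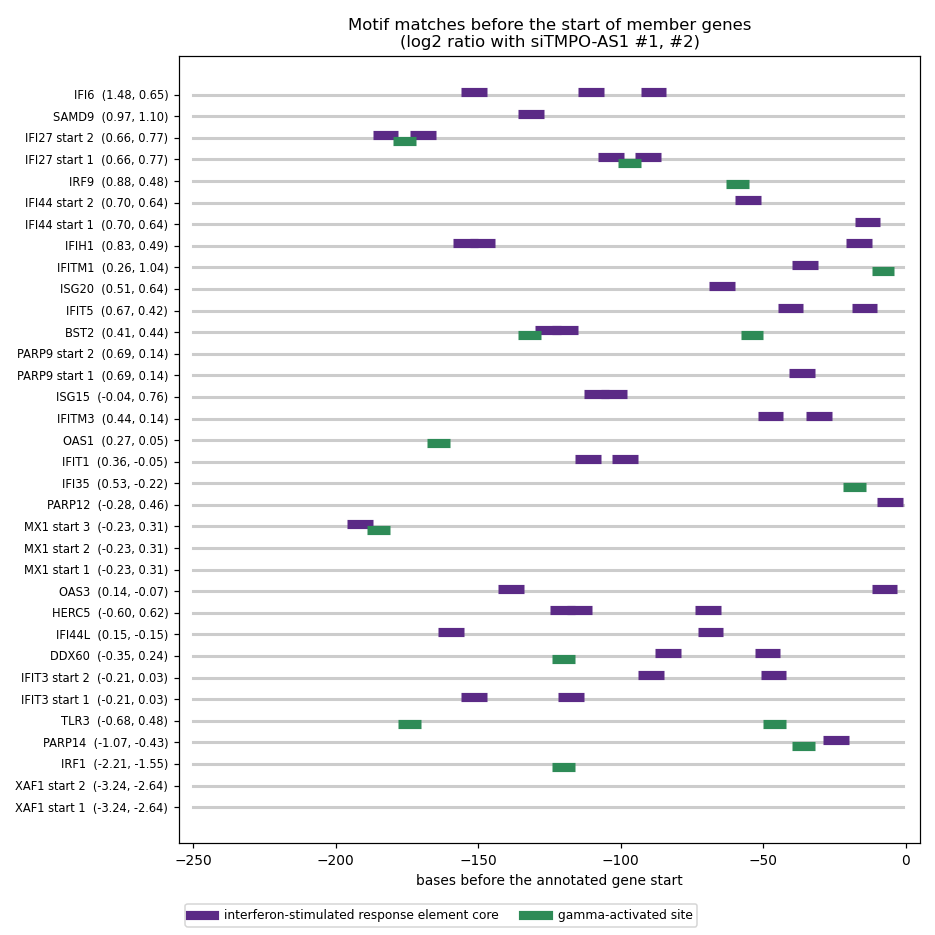
Position of matches to the interferon-stimulated response element core (purple) and the gamma-activated site (green) in the 250 bases before each annotated start (x axis, bases before the start) for members with a match and for XAF1, 1 line per start, ordered by the sum of both log2 ratios, which are given in brackets. Members with neither motif, other than XAF1, are not drawn, so the lines cannot show how the core goes with the ratios. The lowest lines, both XAF1 starts and IRF1, hold no exact match to the core, and IRF1 holds a gamma-activated site. The next line, PARP14 (-1.07 and -0.43), holds both motifs.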

How the data were processed

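RNA of MDA-MB-231 cells, 150 ng per array, was hybridised to 3 Affymetrix arrays, 1 per siRNA, and the labels do not say whether from separate cultures. Per the submitters' processing notes, the authors used RMA in Affymetrix Expression Console, and the values they deposited are log2 signals. The sources used here give no versions, annotation or genome build. On all 3 arrays 1144 of 138745 probe sets (0.825%) lay above 16, so the signals may have been transformed further, and folds refer to the scale as deposited. Array medians were 3.73, 3.75 and 3.75, and pairs of arrays shared 6 to 13 identical values. The number of arrays limits the precision.

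Genes were named from the platform annotation (36176 probe sets with 1 symbol). Values were used without further normalization. Genes tested had a mean at or above the median gene-level mean. limma 3.58.1 (R 4.3.3; lmFit, eBayes, Benjamini-Hochberg, threshold 0.05) compared both siRNA arrays with the control array and was tested on simulated data. Its p-values rest on the spread among these arrays alone, technical or not, and this includes differences between the siRNAs. The members and lists were chosen with earlier results of these data known, and the motifs and printed sequences after values were seen. All members were reported; other genes were named at 1.5-fold with both siRNAs or as key sensors, adaptors and interferons. STAT3, IL10RB, PSMB9, ICAM1, GBP1, GBP2, ZC3HAV1, TNFAIP3 and single marker genes were named outside that rule, after their values were seen.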

Additional observations from a re-analysis of the deposited data

How the results depend on the processing

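Of 73 values recomputed under the alternatives, 56 were labelled as the same and 17 as moved. No log2 ratio changed sign, and counts of members have no sign to change. Counts labelled as the same still shifted. With centred arrays, members higher with siTMPO-AS1 #1 went from 9 to 12 and members lower with siTMPO-AS1 #2 from 5 to 7. The median log2 ratio of the members with siTMPO-AS1 #1 was 0.113 with no filter on dim genes and, in a check chosen after seeing the data, 0.113 without members above 16. It was 0.30 with the stricter filter, 0.14 with the mean of all probe sets, 0.20 with centred arrays and 0.15 after quantile normalization. With siTMPO-AS1 #2 it was 0.30 with the stricter filter, 0.084 with centred arrays and 0.032 after quantile normalization. Under the stricter filter, which leaves 32 members and drops IRF1 and XAF1, 2 members were lower with siTMPO-AS1 #2 and 0 with both siRNAs. After quantile normalization 5 were lower with siTMPO-AS1 #1. At 2-fold, 1 was higher and 4 lower with siTMPO-AS1 #1, 3 higher and 3 lower with siTMPO-AS1 #2, and 0 higher with both. limma called 0 genes in each setting run. Without one or the other siRNA array the mean log2 ratio lay between -2.21 and -1.55 for IRF1 and between -3.24 and -2.64 for XAF1, with no test, since no residual degree of freedom is left. No paired analysis was possible because the control has 1 array. With 1 array per siRNA, no difference between the siRNAs could be tested. The cause of these movements was not tested.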

Other observations

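The partner of XAF1 and related apoptosis inhibitor genes did not follow it on both arrays. XIAP, the caspase inhibitor that XAF1 antagonises, read 10.01 (log2 signal, siControl), 8.28 (siTMPO-AS1 #1) and 9.83 (siTMPO-AS1 #2), which is 3.33-fold lower on the first siRNA array and near control on the second. BIRC2 read 12.10, 10.43 and 13.01, on opposite sides of control. BIRC3 had log2 ratios of -0.89 and -0.41, and BIRC5 (survivin) had 1.14 and -0.10.

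HERC6 and TRIM22 were the 2 members with several probe sets. The dimmer probe sets of HERC6 had log2 ratios of -0.04 and 0.14 and of -0.20 and -0.25, and that of TRIM22 had -0.24 and -0.02, all within 1.5-fold of control like the brightest ones.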
